A study of Mus musculus with 4 samples.

Results

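The transcripts described here are those of 10 genes of the Hippo pathway and its effector YAP, measured in B16-F10 mouse melanoma cells cultured with or without recombinant Cdh1. The genes are Lats1, Lats2, Amotl1, Amotl2, Ajuba, Yap1, Wwtr1, Tead1, Ankrd1 and Axl, out of 23462 named genes on the array. They were taken by name, and every non-control probe whose RefSeq accession belongs to one of them was kept, which gave 16 of 56605 probes. Lats2 and Tead1 had 3 probes each, Lats1 and Axl had 2, and the other 6 genes had 1.

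In the Hippo pathway, the LATS kinases phosphorylate the coactivators YAP (gene Yap1) and TAZ (gene Wwtr1) and so keep them out of the nucleus. Unphosphorylated YAP and TAZ bind TEAD transcription factors and switch on genes such as Ankrd1, Ccn1 and Ccn2. E-cadherin junctions, cell density and tension in the cytoskeleton are known inputs to the pathway, and in melanoma YAP and TAZ are known for roles in invasion. Because YAP and TAZ are controlled mostly through phosphorylation, the transcripts of the pathway are only part of it, and those of the target genes are the usual readout.

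Control cells were grown without added protein and the treated cells with 100 ng/mL of recombinant Cdh1, the mouse symbol for E-cadherin, for 24 h, and all cultures had 10% fetal bovine serum. There were 2 independent sets, each of 1 control and 1 Cdh1 culture, so 4 one-colour arrays in all, on 1 slide and in 1 scan per the file headers. B16-F10 is a single tumour line, and the form and source of the recombinant protein and the density of the cultures are not given in the sources used here. Signals are log2 of the processed intensity relative to the array's 75th percentile, which was 569 to 623 intensity units, so that 0 is that percentile and a difference of 1 is 2-fold. The signal also depends on the probe, so signals are compared between arrays and not between probes.

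All 10 melanocyte markers looked at, among them Pmel, Mlana and Dct, were well above background on all 4 arrays. For other cell types the numbers well above background on all arrays were 5 of 8 fibroblast genes, 4 of 8 leukocyte genes, 3 of 6 epithelial genes and 1 of 4 endothelial genes. Seen on all arrays were Col1a1, Col1a2, Pdgfra, Pdgfrb and Postn of the fibroblast, Itgam (3.22 to 3.44), Csf1r, Cd68 and Cd3e of the leukocyte, Cdh1, Krt5 and Krt14 of the epithelial and Pecam1 of the endothelial list. Seen on none were Dcn, Lum and Thy1, Ptprc and Adgre1, Epcam, Krt8 and Krt18, and Cdh5, Kdr and Tek. The Cdh1 transcript was dim, at -4.56 and -4.38 in control and -4.55 and -4.45 in treated cells.

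TEAD factors recognise a short DNA motif whose core letters are CATTCC, or GGAATG on the other strand. RefSeq promoter windows (GRCm38.p6, 250 bases before to 50 after a start site) were at hand for 9 of the 10 genes, in 11 windows, and 8 of these windows, from 7 genes, held that core on either strand. Over all 32851 promoter windows of 300 bases the share was 14.7%. The AP-1 motif TGANTCA, which reads the same on both strands, was in 0 of the 11 windows and in 7.81% of all windows. A match says only that the letters are there. The upstream 250 bases are shown for the targets Ankrd1, Axl and Amotl2, for Ajuba, which held the core at 2 places, and for Wwtr1, which has the lowest set 2 minus set 1 difference among the members, all on the gene's own strand with the TEAD core in capitals.
Ankrd1, chr19:36119845-36120094, minus strand: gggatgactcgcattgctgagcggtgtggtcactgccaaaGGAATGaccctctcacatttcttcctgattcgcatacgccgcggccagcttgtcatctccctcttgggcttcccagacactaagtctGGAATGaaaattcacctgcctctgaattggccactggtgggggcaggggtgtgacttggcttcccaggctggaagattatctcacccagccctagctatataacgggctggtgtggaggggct
Axl, chr7:25788734-25788983, minus strand: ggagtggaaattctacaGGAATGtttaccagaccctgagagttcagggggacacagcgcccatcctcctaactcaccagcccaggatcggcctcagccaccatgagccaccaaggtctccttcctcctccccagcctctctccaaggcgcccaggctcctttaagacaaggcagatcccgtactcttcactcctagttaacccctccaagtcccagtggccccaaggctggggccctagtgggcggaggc
Amotl2, chr9:102717554-102717803, plus strand: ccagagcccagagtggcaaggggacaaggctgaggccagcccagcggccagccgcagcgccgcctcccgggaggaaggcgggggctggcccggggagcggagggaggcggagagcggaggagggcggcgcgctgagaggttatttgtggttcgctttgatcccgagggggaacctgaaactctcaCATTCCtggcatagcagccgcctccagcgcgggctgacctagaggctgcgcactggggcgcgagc
Ajuba, chr14:54577662-54577911, minus strand: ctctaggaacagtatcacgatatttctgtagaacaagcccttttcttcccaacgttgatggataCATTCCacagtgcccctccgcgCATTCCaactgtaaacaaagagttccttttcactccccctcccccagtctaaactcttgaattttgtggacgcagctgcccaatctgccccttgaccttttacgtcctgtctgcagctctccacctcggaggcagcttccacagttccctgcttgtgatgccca
Wwtr1, chr3:57575911-57576160, minus strand: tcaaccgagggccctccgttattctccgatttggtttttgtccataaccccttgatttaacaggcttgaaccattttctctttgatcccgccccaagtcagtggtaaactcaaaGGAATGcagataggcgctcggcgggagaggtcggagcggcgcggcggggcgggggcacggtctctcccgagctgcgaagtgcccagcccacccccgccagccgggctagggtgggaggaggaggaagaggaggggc
The cores of Ankrd1 began 210 and 123 bases before the start site, those of Ajuba 186 and 164, and that of Amotl2 65. Axl had its core 233 bases before the start and Yap1 141. The core of Wwtr1 lay 136 or 170 bases before the start in 2 overlapping windows, and that of Lats2 lay 5 bases after the start of 1 of its 2 windows. None was found in the windows of Lats1 and Amotl1.

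The first comparison asked whether the cells' Hippo transcripts differed after 24 h with recombinant Cdh1. None of the 9 genes that could be tested differed detectably, and Ankrd1 was too dim to test. Yap1 and Wwtr1 were well above background on every array, at like signals with and without Cdh1, and the LATS kinases, the angiomotin-like proteins, Ajuba and Tead1 were detected throughout as well. Ankrd1, the classical YAP target, was not well above background on any array. Of the 14 member probes that could be tested, 0 were called by limma (Benjamini-Hochberg adjusted p under 0.05, over 32571 probes), beside 0.0% of all probes, higher or lower. At an unadjusted p under 0.05 there were also 0, beside 1.72% of all probes.

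**Figure D1:**
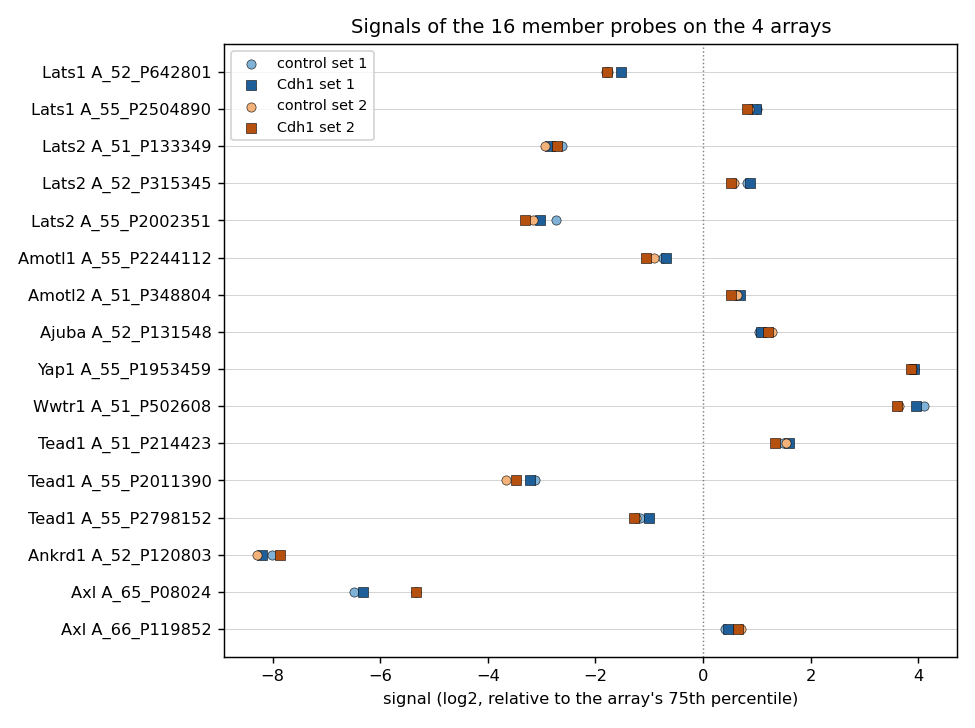
Signal of each of the 16 member probes (log2 relative to the array's 75th percentile, dotted line at 0) on the 4 arrays; circles are control and squares Cdh1 cultures, blue is set 1 and orange set 2. The 4 values of a probe lie close together, those of Ankrd1 lie near -8, and the dim probe of Axl separates set 2 from set 1.

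Among the effectors, Yap1 had signals of 3.92 and 3.89 in the control cultures of sets 1 and 2 and 3.93 and 3.87 with Cdh1. The 4 values lay within a narrow band and the groups overlapped. The mean was 3.90 ± 0.03 in control and 3.90 ± 0.04 with Cdh1 (SD, n = 2), and the difference of -0.01 had a 95% interval of -0.29 to 0.28 in limma. Wwtr1, which encodes TAZ, had 4.11 and 3.64 in control and 3.96 and 3.60 with Cdh1. Its values were high in set 1 and low in set 2 in either group, so the groups overlapped. On average it was -0.09 with Cdh1, from -0.14 in set 1 and -0.04 in set 2. The SE was 0.23, which includes the shift between the sets, and 0.07 with the set as a block.

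Tead1 encodes one of the TEAD factors through which YAP and TAZ reach DNA, and its brightest probe (A_51_P214423) had 1.48 and 1.55 in control and 1.60 and 1.33 with Cdh1. The treated values lay on either side of the control values. Set 1 gave 0.12 and set 2 gave -0.21, so that the mean was -0.05 (SE 0.14). Its other probes gave 0.16 and -0.04 (A_55_P2798152) and -0.10 and 0.18 (A_55_P2011390) in sets 1 and 2, so that the 3 probes of Tead1 did not share a direction in either set.

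Lats1 and Lats2 are the kinases that phosphorylate YAP and TAZ. The brightest probe of Lats1 (A_55_P2504890) had 1.0 and 0.86 in control and 0.99 and 0.82 with Cdh1, so that Cdh1 minus control was -0.03 (SE 0.13) and the groups overlapped. This probe lies in row 375, among the last 24 rows of spots. The dimmer probe of Lats1, in row 171, had -1.76 and -1.81 in control and -1.53 and -1.79 with Cdh1. It was the member probe with the highest mean difference, 0.13 with an SE of 0.14, and the sets gave 0.23 and 0.02.

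The brightest probe of Lats2 (A_52_P315345) had 0.82 and 0.58 in control and 0.87 and 0.52 with Cdh1, and its difference was 0.06 in set 1 and -0.06 in set 2. The dim probe for the transcript NM_153382 (A_55_P2002351) had -2.72 and -3.16 in control and -3.02 and -3.31 with Cdh1. It was lower with Cdh1 in both sets, by -0.30 and -0.15, but its groups overlapped because the control of set 2 lay below the Cdh1 culture of set 1. The mean of -0.23 had an SE of 0.21 and a 95% interval of -0.81 to 0.36, with an adjusted p of 1 without the set as a block and 0.703 with it (limma). The last probe of Lats2 (A_51_P133349) gave -0.22 in set 1 and 0.22 in set 2. The 3 probes of this gene thus gave 3 different patterns, at differences that were all within their intervals of 0.

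Amotl1 and Amotl2 encode angiomotin-like proteins, which hold YAP at junctions and in the cytoplasm, and Amotl2 is itself a target of YAP. Amotl1 had -0.74 and -0.91 in control and -0.69 and -1.05 with Cdh1, a difference of 0.04 in set 1 and -0.14 in set 2. Amotl2 had 0.61 and 0.63 in control and 0.69 and 0.52 with Cdh1, a difference of 0.08 and -0.11. Both genes thus had a small difference of opposite sign in the sets and overlapping groups. Ajuba encodes a LIM protein of junctions that binds and restrains LATS kinases. It had 1.04 and 1.29 in control and 1.07 and 1.21 with Cdh1, with a mean difference of -0.03 and an SE of 0.14.

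Ankrd1 encodes a cardiac ankyrin repeat protein and is among the genes most often used to read YAP activity. Its probe gave processed intensities of 2.19 and 2.0 in control and 1.96 and 2.66 with Cdh1, against a 75th percentile of 569 or more on every array. All 4 values were at background, so no fold change is given for it in either comparison. Axl encodes a receptor tyrosine kinase that YAP can induce. Its bright probe (A_66_P119852) had 0.40 and 0.70 in control and 0.47 and 0.65 with Cdh1. The treated values lay between the control values, and the difference of 0.01 had a 95% interval of -0.44 to 0.46. The other probe of Axl was well above background only in set 2, at -5.33 in control and -5.33 with Cdh1, and so was not tested between the groups.

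Over the 14 probes the differences ran from -0.23 to 0.13 with a median of -0.01, beside a median of 0.00 over all 32571 probes tested. All 14 intervals held 0. The narrowest reached 0.29 to either side and the widest 0.65, and the outermost bound was -0.81, a 1.76-fold difference. With the set as a block, which takes out the shift that both arrays of a set share, all 14 intervals still held 0. They were narrower, except that of the Lats2 probe A_51_P133349, at -0.44 to 0.45 with the block and -0.43 to 0.44 without. The outermost bounds were then -0.46, for the Lats2 probe A_55_P2002351, and 0.45, for A_51_P133349, and the interval of Wwtr1 was -0.30 to 0.12. Differences within these bounds could not be told from 0 with 2 cultures per group, and the smallest p that an exact permutation test (two-sided) can reach with 2 and 2 is 0.333. In 0 of the 14 probes did both Cdh1 arrays lie above both control arrays, beside 9.43% of 31155 probes seen on all arrays, and in 0 did both lie below, beside 7.81%.

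**Figure D2:**
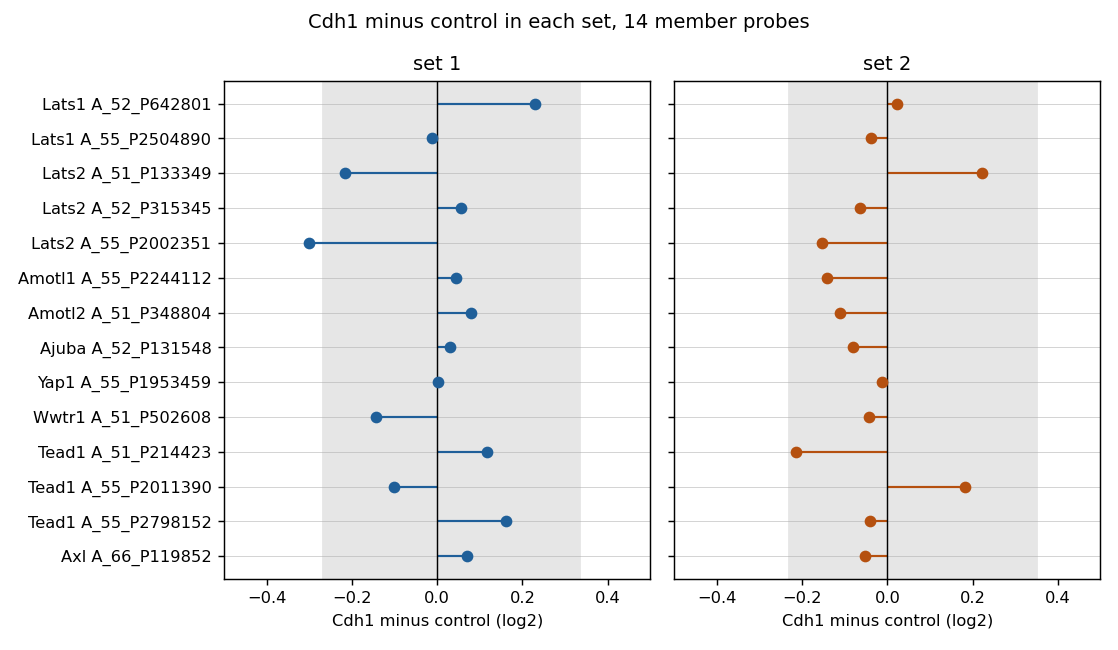
Cdh1 minus control (log2) in set 1 (left) and set 2 (right) for the 14 member probes well above background on all 4 arrays, each point 1 pair of arrays; the grey bands, -0.27 to 0.33 and -0.23 to 0.35, leave the lowest and the highest 5% of all 31155 such probes outside. In set 1 only the Lats2 probe A_55_P2002351, at -0.30, lies outside the band, and in set 2 no member probe does.

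Most of the small differences had opposite signs in the sets. With 1 probe a gene, 7 of the 9 detected genes were higher with Cdh1 in set 1 and lower in set 2, namely Lats2, Amotl1, Amotl2, Ajuba, Yap1, Tead1 and Axl, and Lats1 and Wwtr1 were lower in both. Of 13997 genes, 22.8% were higher in set 1 and lower in set 2, 26.2% the other way round, 19.6% higher in both and 31.4% lower in both. By probe, 8 of the 14 were higher in set 1 and lower in set 2 (23.5% of all probes), 2 the other way round (24.0%), 1 higher in both (25.6%) and 3 lower in both (26.9%). The median of the 9 genes was 0.04 in set 1 and -0.06 in set 2, beside -0.02 and -0.01 over all genes. The number was 6 of 9 after median centring, where Yap1 turned to -0.01 in set 1 and the share over all genes was 30.6%. It was 6 of 9 after quantile normalization, where Yap1 turned to 0.01 in set 2, beside 24.5% of all genes. With normexp it was 7 of 9, beside 24.7%. Each set holds 1 array of either group, so the difference between the sets' responses has no replicate and was not tested. The genes were also chosen with earlier results of these arrays known.

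The target genes Ccn1 and Ccn2, which encode matricellular proteins and are with Ankrd1 the usual readouts of YAP, had the widest gap between the sets' Cdh1 differences among the 41 other pathway genes seen on all arrays. Ccn1 had 0.02 in control and 0.05 with Cdh1 in set 1, but -0.56 and -1.15 in set 2. Cdh1 minus control was thus 0.02 and -0.59, the lowest value of set 2 being that of the treated culture. Its probe lies in row 367, also among the last 24 rows, and set 1 turned to -0.08 with normexp while set 2 stayed at -0.50. Ccn2, in row 73, had -2.40 and -2.20 in set 1 and -2.36 and -2.85 in set 2, a difference of 0.20 and -0.49. Neither gene was called, with mean differences of -0.28 (SE 0.49) and -0.14 (SE 0.25) and a limma adjusted p of 1 for each, or 0.871 and 0.963 with the set as a block.

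The wider pathway was described with a list of 47 other genes, with 1 probe a gene, of which 41 were well above background on all arrays. The 6 others, Fat4, Vgll1, Vgll2, Areg, Foxf2 and Nt5e, were so on none. Between Cdh1 and control 0 of the 41 genes were called (limma, beside 0.0% of 14452 genes), and 0 had an unadjusted p under 0.05. Their median difference was -0.01, beside -0.01 over all genes, with medians of -0.01 for the 5 genes of the kinase core, 0.00 for 14 upstream and junction genes, 0.01 for 5 nuclear partners and -0.03 for 17 target genes. Of the target genes 10 of 17, or 58.8%, were higher in set 1 and lower in set 2, beside 22.8% of all genes. With normexp it was 6 of 17, or 35.3%, beside 24.7%.

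Among the genes with the same sign in both sets, the highest mean differences were those of Asap1 and Tead3. Asap1, a regulator of Arf GTPases, had 0.18 in set 1 and 0.05 in set 2, and a further probe of it gave -0.06 and -0.04. Tead3, a TEAD factor, had 0.05 and 0.14. The lowest were those of Dchs1, a large protocadherin that is the ligand of Fat4, at -0.15 and -0.27, and of Ccdc80, a secreted matrix protein, at -0.09 and -0.24. All 4 had a limma adjusted p of 1. For Dchs1 the mean of -0.21 had an SE of 0.11, and both Cdh1 arrays, at -3.80 and -3.91, lay below both control arrays, at -3.65 and -3.64. Such a separation was found in 3 of the 41 genes, beside 7.86% of 13997 genes, and the opposite one in 2, beside 5.87%.

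**Figure D3:**
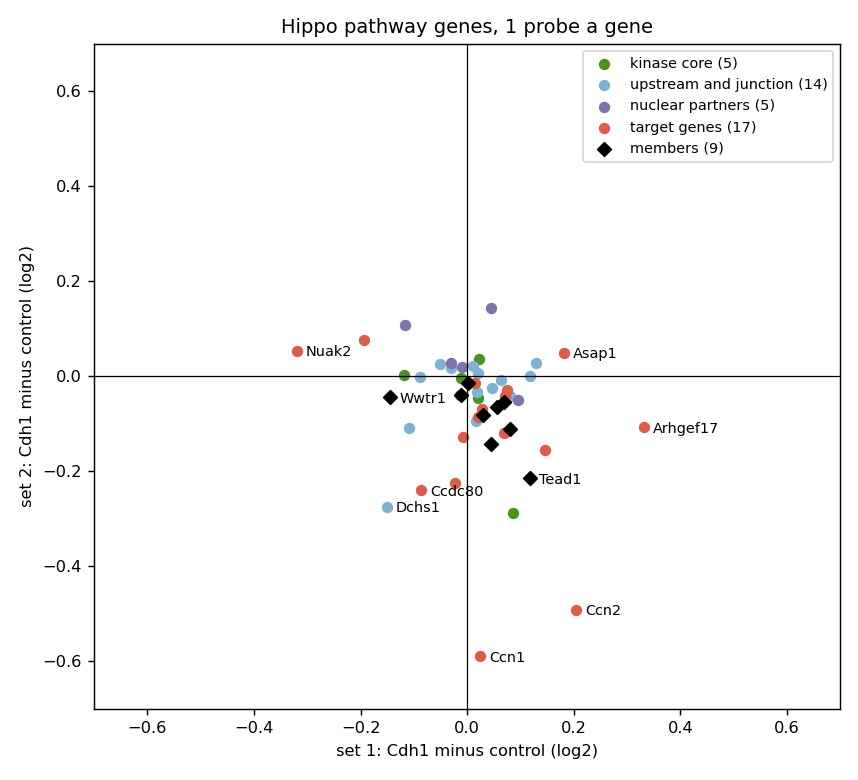
Cdh1 minus control (log2) in set 2 against set 1, with 1 probe a gene, for the 9 detected member genes (black diamonds) and the 41 detected other pathway genes coloured by role. On this scaling all 9 member genes lie below 0 on the set 2 axis, beside 7588 of 13997 genes. With quantile normalization 8 do, beside 7415 of all genes, and with normexp 7, beside 7333. Ccn1 and Ccn2 lie lowest, at -0.59 and -0.49 in set 2.

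The culture sets were then compared over both treatments, which asks how far the same transcripts vary between independent cultures of the line. Wwtr1 was lower in set 2 than in set 1, a call that did not hold with the treatment as a block or after median centring. The bright probe of Axl had higher values in set 2 but was not called. Yap1 and Amotl2 had differences of -0.05 and -0.07. The 2 arrays of a set differ in treatment, and what else differed between the sets is not given in the sources used here. In bulk RNA, fewer cells expressing a gene and less RNA per cell cannot be told apart. Of the 14 member probes seen on all arrays 1 was called (limma, adjusted p under 0.05), lower in set 2, beside 15.5% of 32958 probes in either direction, 8.64% lower and 6.83% higher. When the fit was limited to probes seen on all arrays, 2 of the 14 were called, both lower, Wwtr1 and the Lats2 probe A_52_P315345. In that fit 5516 of all 31155 probes were called in either direction. At an unadjusted p under 0.05 there were 7 of the 14, beside 36.6% of all probes. The dim Axl probe also entered this test, but only through set 2, where it is high, so it is left out of these counts.

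The Wwtr1 signal was 4.04 ± 0.10 in set 1 and 3.62 ± 0.03 in set 2 (SD, n = 2). The sets did not overlap, and set 2 was lower by -0.47 in the control and by -0.37 in the Cdh1 cultures. The mean difference of -0.42, or 1.34-fold, had an SE of 0.08 and an adjusted p of 0.0425 in limma. With the treatment as a block the adjusted p was 0.0671 and after median centring 0.0599 (limma), so the call did not hold under these settings although the direction did. Without the filter on dim probes the adjusted p was 0.197, but 0 of all 56605 probes were then called, so that run cannot decide for Wwtr1. With 1 array left out, which leaves 1 culture in a set, the difference ran from -0.49 to -0.35. The paralogue Yap1 differed by -0.05 with a 95% interval of -0.19 to 0.10.

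Only the bright probe of Axl was well above background in both sets. The bright probe was 0.43 ± 0.05 in set 1 and 0.68 ± 0.04 in set 2 (SD, n = 2). This is 0.24 higher (SE 0.06), with a limma adjusted p of 0.0755, which missed the threshold. The dim probe, at -6.48 and -6.31 in set 1 and -5.33 and -5.33 in set 2, was well above background in set 2 alone. It was tested for that reason, so its adjusted p of 0.0117 (limma, or 0.0393 with the treatment as a block) is given as a description. Without the filter on dim probes no probe on the array was called, this one included. Since set 1 gives only a bound, its signal in set 2 was at least 1.44-fold higher. That bound sets the mean of set 2 against, for each array of set 1, the higher of its own signal and the lowest signal well above background.

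The remaining differences were not called. Lats2 (A_52_P315345) was 0.84 ± 0.04 in set 1 and 0.55 ± 0.05 in set 2 (SD, n = 2), which gives -0.30 (SE 0.06) and a limma adjusted p of 0.0527. The sets of Lats2 were apart with this probe and with A_55_P2002351, at -0.36, and overlapped with the third. Amotl1 gave -0.27 (adjusted p 0.0906, limma) and Ajuba, in the other direction, 0.20 (adjusted p 0.106). Tead1 gave -0.09 with its brightest probe, whose sets overlapped, and -0.39 with A_55_P2011390. Among the 14 probes seen on all 4 arrays, both arrays of set 2 lay below both of set 1 in 9, beside 34.6% of all such probes, and above in 2, beside 33.0%. Their median difference was -0.15, beside 0.00 over all such probes. These counts take Lats1, Lats2 and Tead1 more than once. With 1 probe a gene, set 2 lay below set 1 in 5 of the 9 detected genes, beside 5743 of 13997 genes. It lay above in 2, beside 4478, and the median by gene was -0.09, beside -0.03 over all such genes.

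**Figure D4:**
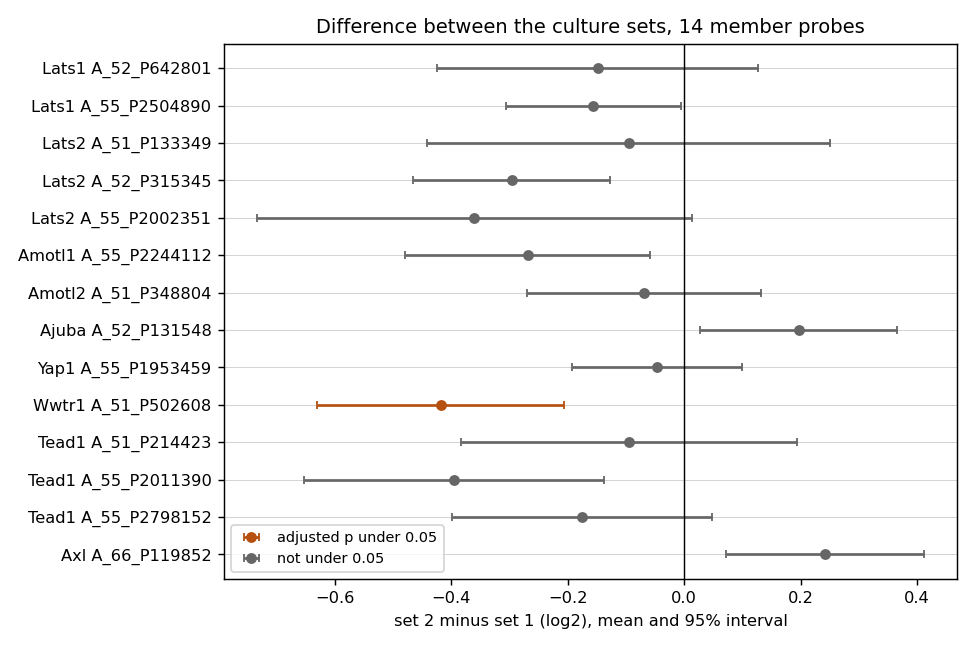
Set 2 minus set 1 (log2, mean over both treatments) for the 14 member probes well above background on all 4 arrays, with the 95% interval of the limma fit; orange marks an adjusted p under 0.05. Wwtr1 at -0.42 is the only such probe called, Axl and Ajuba lie above 0, and the other probes lie below.

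In the wider pathway 7 of 41 genes differed between the sets, beside 19.0% of 14642 genes, 3 higher (7.54% of genes) and 4 lower (11.5%) in set 2 (limma, adjusted p under 0.05). With the treatment as a block Gadd45a, Gadd45b, Rbms3 and Ccdc80 were called, while Vgll4, F3 and Mob1b had an adjusted p of 0.0576, 0.0758 and 0.0797 (limma). Fits with 1 array left out leave 1 culture in a set and called few or no probes anywhere on the array, so they cannot decide for these genes. The lower ones were the target genes Gadd45a, Ccdc80 and F3 and the kinase cofactor Mob1b. Gadd45a, a stress-induced cell cycle gene that also answers to p53, went from 3.17 ± 0.14 to 1.58 ± 0.05 (SD, n = 2), a 3.01-fold difference with an adjusted p of 0.00833. Its relative Gadd45b went the other way, from -2.33 ± 0.01 to -1.22 ± 0.09, with an adjusted p of 0.0089. The other higher genes were Rbms3, an RNA-binding protein gene, by 0.65 with its brightest probe and by 0.61 and 0.80 with its others, and Vgll4, a TEAD cofactor that competes with YAP, by 0.46. F3, which encodes tissue factor, was lower by -0.34, Mob1b by -0.32 and Ccdc80 by -0.67. None of the 14 upstream and junction genes was called, and among them 4 had an unadjusted p under 0.05 (limma), beside 5909 of 14642 genes.

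The sets also differed in melanocyte genes, 6 of 10 being lower in set 2 and 0 higher at an adjusted p under 0.05 (limma), with a median of -0.34, beside 11.5% of all genes lower. The summed signal of the 10 genes, in multiples of the 75th percentile, was 1763 and 1726 on the arrays of set 1 and 1468 and 1468 on those of set 2. Of 5 tested fibroblast genes 2 were lower, beside the same 11.5%, and their summed signal, over 8 genes, was 3.85 to 3.99 in set 1 and 3.16 to 3.33 in set 2. The part of these shifts in the values of Wwtr1, Axl and the target genes was not tested.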

How the data were processed

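Total RNA of 4 B16-F10 cultures was hybridised to Agilent one-colour arrays. The authors extracted signals with Agilent Feature Extraction 12.0.3.1, per the submitters' processing notes and the file headers. Per spot, the deposited files hold a processed intensity, background-subtracted and detrended within the array but not normalized between arrays, with median intensities and flags for outlier, saturated and well-above-background spots. The authors also deposited a table of intensities, found to be the processed intensity times 1 factor per array, 0.919, 0.93, 0.873 and 0.892, for all 59305 spots. Its further scaling is unstated.

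Here, log2 of the processed intensity was taken minus the array's 75th percentile over non-control spots, outlier spots (115 to 143 per array) were left out, none of the members' among them, and spots of a probe were averaged. Between 59.3% and 61.3% of spots were well above background and 0 were saturated. Probes were named through RefSeq accessions in a table of GRCm38.p6, which matched 33767 of 56605 probes. The brightest probe on average stands for a gene. Probes that were well above background in both cultures of a group, or of a set, were fitted with limma 3.58.1 in R 4.3.3 (lmFit, eBayes, no block) and adjusted by the Benjamini-Hochberg method over all tested probes. The script was tested on simulated data. Python 3.11.15 and matplotlib 3.10.9 were used to read and draw.

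The set numbers come from the sample titles and the design text, and arrays with the same number deviated together from their group means (correlation 0.744 over 31155 probes). The members, the gene lists and the rule for naming genes were chosen with earlier results of these data known. The rule took all members, Ccn1 and Ccn2, up to 3 called genes per role and direction between the sets, and the 2 genes with the largest mean Cdh1 difference in each direction among those with the same sign in both sets. Alternatives were other scalings, normexp with an offset of 50, the authors' table, other filters, no outer 24 rows, a trend and robust prior, a block for the other factor, the mean of a gene's probes and each array left out. Likeness of pattern between genes was not computed, since 4 arrays are too few.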

Additional observations from a re-analysis of the deposited data

How the results depend on the processing

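Between Cdh1 and control the count of called probes was 0 over all probes, the members and the other pathway genes under each alternative run, the replicate block included, and 0 to 0 with 1 array left out (limma). At an unadjusted p under 0.05 there were 561 of all probes, or 2335 with the replicate block. The differences of the 9 member genes, all near 0, kept their sign in 82 values and lost it in 7 when all arrays were used. Those 7 were 0.050 for Lats1 and 0.017 for Tead1 with the mean of all probes, 0.0024 for Lats2 and 0.020 for Yap1 with quantile normalization, 0.0052 for Lats2 and 0.0094 for Ajuba with normexp, and -0.036 for Axl with median centring. With 1 array left out the ranges were -0.11 to 0.060 for Lats1, -0.18 to 0.17 for Lats2, -0.23 to 0.13 for Amotl1, -0.10 to 0.067 for Amotl2, -0.15 to 0.10 for Ajuba, -0.033 to 0.021 for Yap1, -0.33 to 0.14 for Wwtr1, -0.18 to 0.082 for Tead1 and -0.14 to 0.16 for Axl, each group then drawing unequally on the sets. Between the sets, the 5098 called probes numbered 9020 under normexp, 11196 under a trended robust prior, 2165 with the treatment as a block, 0 without the filter on dim probes and 0 to 409 with 1 array left out. In the same order, up to the run without the filter, the 2 member probes became 7, 7, 1 and 0, and 1 with median centring. The 2 were Wwtr1 and the dim probe of Axl, which entered only through set 2, where it is high. With the treatment as a block the 1 was this Axl probe (limma adjusted p 0.0393), and Wwtr1 had 0.0671. With median centring the 1 was again higher in set 2, and Wwtr1 had 0.0599. Neither count of 1 thus shows a call that held. The 7 other pathway genes became 14, 17, 4 and 0 in that order. The cause was not tested. Yap1 reversed to 0.0081 between the sets with quantile normalization, and Tead1 ranged from -0.20 to 0.012 with 1 array left out. The slide and the scan were the same for all arrays and gave no block. Signal over background limits Ankrd1 and the dim probe of Axl, for which no difference between Cdh1 and control is given here.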
